A study of Mus musculus with 14 samples.

Results

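Coagulation and complement are 2 cascades of plasma proteins, most of them secreted by hepatocytes, and 40 genes of these cascades were followed in mouse liver that regrew after partial hepatectomy. A gene was taken when a probe set of the array carried its symbol and no other, and where a gene had several such probe sets the one with the highest mean intensity over all 14 arrays was used. That gave 37 of the 40 listed genes, 23 of 24 in coagulation and 14 of 16 in complement, out of 12393 genes with a probe set of 1 symbol. Cpb2 and C3 were not analysed here because no probe set carried their symbol alone in the annotation used, and C4b was not analysed because its probe set also names C4a. All 37 genes passed the filter on low values, a mean intensity of 128.8 (the 40th percentile of all probe sets), and the lowest mean intensity among them was 782.

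In coagulation, zymogen proteases activate each other in turn until thrombin cuts fibrinogen into fibrin, while serpins and the protein C system restrain the proteases and plasmin dissolves the clot. In complement, the lectin, classical and alternative routes build convertases that cleave C3 and then C5, and the terminal components assemble into a pore in the target membrane. Several of these proteins, fibrinogen above all, are positive acute-phase proteins whose synthesis in hepatocytes responds to interleukin 6. Liver resection removes part of the organ that makes them, and lower plasma levels of clotting factors are a known early consequence.

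The study profiled total RNA of mouse liver on 14 oligonucleotide arrays. Normal liver was compared with liver taken 4, 8, 12, 36, 48 and 72 h after partial hepatectomy (PHx), with 2 arrays in each of the 7 groups. RNA for an array came from livers of 4 to 6 mice pooled at extraction, so the spread between mice is not seen. Strain, sex and age of the mice, any sham operation and whether the 2 arrays of a group hold separate pools are not given in the sources used here, so each p-value reflects the spread between these arrays alone, which may be technical. Normal liver is the reference of all 6 comparisons, which therefore share the same 2 arrays.

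The deposited values were linear intensities scaled to a trimmed mean of 500.2 to 500.3 per array, with array medians of 127.8 to 233.1. Replicate 2 of normal liver had both the lowest median and the highest maximum, 81006.1. In 4 arrays, replicate 2 at 8, 12, 36 and 72 h, the ratio of 5′ to 3′ signal for the pyruvate carboxylase control was 0.091 to 0.137, against 0.305 to 0.584 in the other 10; these are called the low-ratio arrays. All 10 hepatocyte markers had a probe set above background in every group, and their summed intensity was 320435.1 to 386150.8 in normal liver, 291403 to 313048.4 at 8 h and 237713.5 to 239063.7 at 36 h. Markers of other tissues moved with time as well. Pancreatic acinar genes (8 of 10 with a probe set; the lipase Pnlip and the amylase Amy2 had none) summed to 978.6 to 1858.5 in normal liver, 34228.1 to 34622.5 at 4 h, 214299.3 to 230444.5 at 8 h and 1576.8 to 3734.1 at 12 h. At 36 h the acinar sum was 928.4 in replicate 1 and 38719.5 in replicate 2, and it was 2173.6 to 2370.8 at 48 h and 1354.6 to 1468 at 72 h. The 10 skeletal muscle genes summed to 247.7 to 492.1 in normal liver, 14229.2 to 16101.5 at 4 h and 9078.3 to 9657.1 at 8 h. The 10 Kupffer cell and macrophage markers summed to 12544.7 to 14064.4 in normal liver, 8364.7 to 9391.2 at 8 h and 5267.7 to 7698.6 at 12 h. Of the 10 neutrophil markers 9 had a probe set, and they summed to 887.6 to 996 in normal liver, 2179 to 2313.8 at 4 h, 2651.6 to 2983.5 at 8 h and 2252.6 to 2539.2 at 12 h. The part of these tissues and cells in the results was not tested, and in whole liver fewer cells of a type and less RNA per cell cannot be told apart.

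Of the 37 genes 10 were called lower than normal liver at 1 or more times and none was called higher. The share of all probe sets called at 1 or more times was not computed, and shares are given for each time. A gene was called at a Benjamini-Hochberg adjusted p under 0.05 in limma over 13576 probe sets, and 22 of 222 pairs of gene and time passed, all of them lower than normal liver. No gene was called higher at any time, against 1.6%, 4.87%, 5.98%, 2.28%, 1.64% and 1.62% of all probe sets at 4, 8, 12, 36, 48 and 72 h. At 4 h no coagulation or complement gene was called (limma), and 0 coagulation genes and 1 complement gene had an unadjusted p under 0.05; over all probe sets 2.42% were called and 0.825% were called lower. At 8 h 5 coagulation genes (F10, F11, F13b, Serpind1 and Klkb1) and 4 complement genes (Hc, C2, C8b and Mbl2) were lower, against 4.72% of all probe sets called lower and 9.59% called in either direction. At 12 h 4 coagulation genes (F11, F13b, Serpind1 and Klkb1) and 2 complement genes (C8b and Mbl2) were lower, against 6.22% lower and 12.2% in either direction. At 36 h F2 and F10 in coagulation and C2, C8b and Mbl2 in complement were lower, against 1.89% lower and 4.17% in either direction. At 48 and 72 h C8b alone was called; the limma count for coagulation was 0 at both times, with 7 and 8 genes at an unadjusted p under 0.05. The background at 48 h was 0.685% lower and 2.32% in either direction, and at 72 h it was 0.869% and 2.49%. In the moderated F test over the 6 times, 3 coagulation genes (F10, Serpind1, Klkb1) and 3 complement genes (C2, C8b, Mbl2) passed. These 6 of 37 stand against 13.1% of all probe sets, so the count is near the background.

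**Figure D1:**
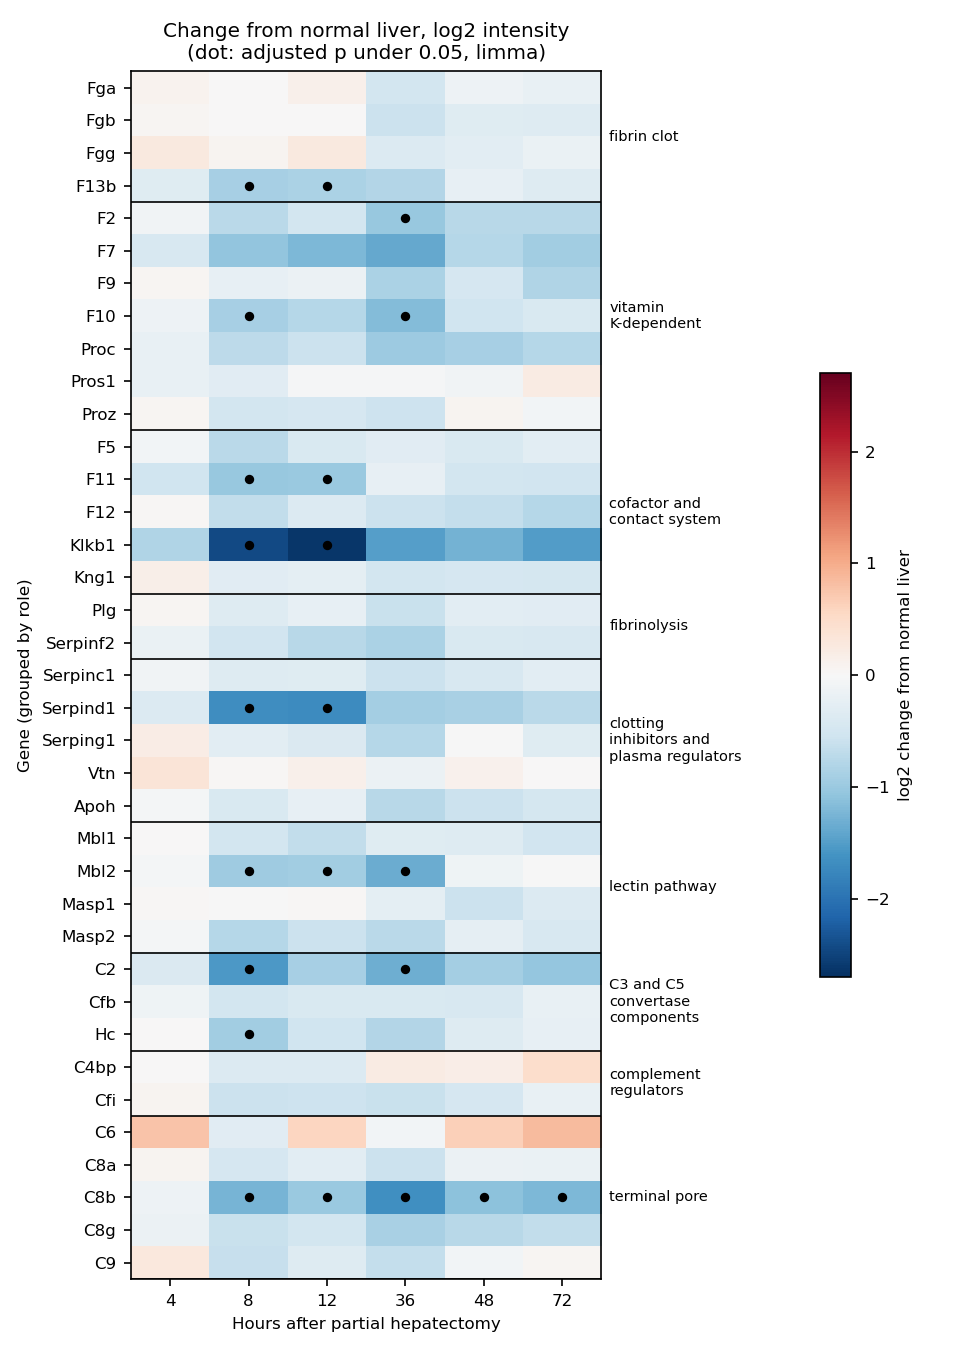
Log2 change from normal liver of each of the 37 genes (rows, grouped by role) at 4, 8, 12, 36, 48 and 72 h after partial hepatectomy (columns); blue is lower, red is higher, and a dot marks an adjusted p under 0.05 in limma. The 22 dots all lie on blue fields between 8 and 72 h, and Klkb1 at 8 and 12 h has the deepest colour.

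With few arrays, many calls were lost when 1 was left out, often with a change of similar size. Without replicate 2 of normal liver 4 of the 22 calls were kept (Klkb1 at 8 and 12 h, C8b at 8 and 36 h), and without the 4 low-ratio arrays 5 were kept. The log2 change was as large or larger for 7 of the 22 without replicate 2 of normal liver and smaller by 0.11 to 0.29 for 15; without the low-ratio arrays it was as large or larger for 13 and smaller by 0.02 to 0.26 for 9. Without replicate 2 of normal liver, coagulation had 1, 1 and 0 calls at 8, 12 and 36 h, and complement had 1, 0 and 1. Without either array at 12 h, the coagulation count at 36 h was 9, and without replicate 2 at 8 h the coagulation count at 8 h was 1. With replicate 1 alone at 36 h, the array with the low acinar sum, the log2 changes at 36 h of F2, F10, C2, C8b and Mbl2 were -0.89, -0.92, -1.42, -1.71 and -1.13, of which C8b passed. No call changed direction under any of the 23 alternative settings. The shares of all probe sets called under these settings were not computed.

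Many genes that missed the threshold also lay below normal liver. At 4, 8, 12, 36, 48 and 72 h both arrays lay below both normal arrays for 8, 32, 23, 34, 23 and 23 of the 37 genes. Over all probe sets the shares were 23.8%, 25.6%, 22.9%, 20.2%, 16.3% and 17.5%. Both arrays lay above both normal arrays for 5, 0, 1, 0, 1 and 2 of the genes, against 19.4%, 29.5%, 29.4%, 26.7%, 22.9% and 27.1%. A difference of 2-fold or more between group means, the study's own rule, was met by 0, 6, 3, 7, 2 and 3 of the genes, against 9.31%, 15.8%, 19.1%, 10.2%, 8.52% and 8.35% of all probe sets. For 21 of the 37 genes the largest change came at 36 h, and for 8 it came at 8 h. This was not counted over all probe sets. The hepatocyte markers and the other plasma proteins of liver, given below, also had their lowest median at 36 h (-0.62 and -0.66). Over the same 6 times the coagulation genes had a median log2 change of -0.07, -0.50, -0.38, -0.61, -0.44 and -0.41. The complement genes had medians of 0.01, -0.59, -0.52, -0.63, -0.34 and -0.22. The median over all tested probe sets lay between 0 and 0.12, and among 4010 probe sets as bright as the dimmest of the 37 genes it lay between -0.09 and 0.04. Quantile normalization drew the medians at 36, 48 and 72 h toward 0. They were then -0.44, -0.20 and -0.25 for coagulation and -0.45, -0.17 and -0.05 for complement. The 37 genes made up 2.28 to 2.58% of the summed intensity of an array in normal liver, 1.87 to 1.93% at 8 h and 1.63 to 1.78% at 36 h.

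**Figure D2:**
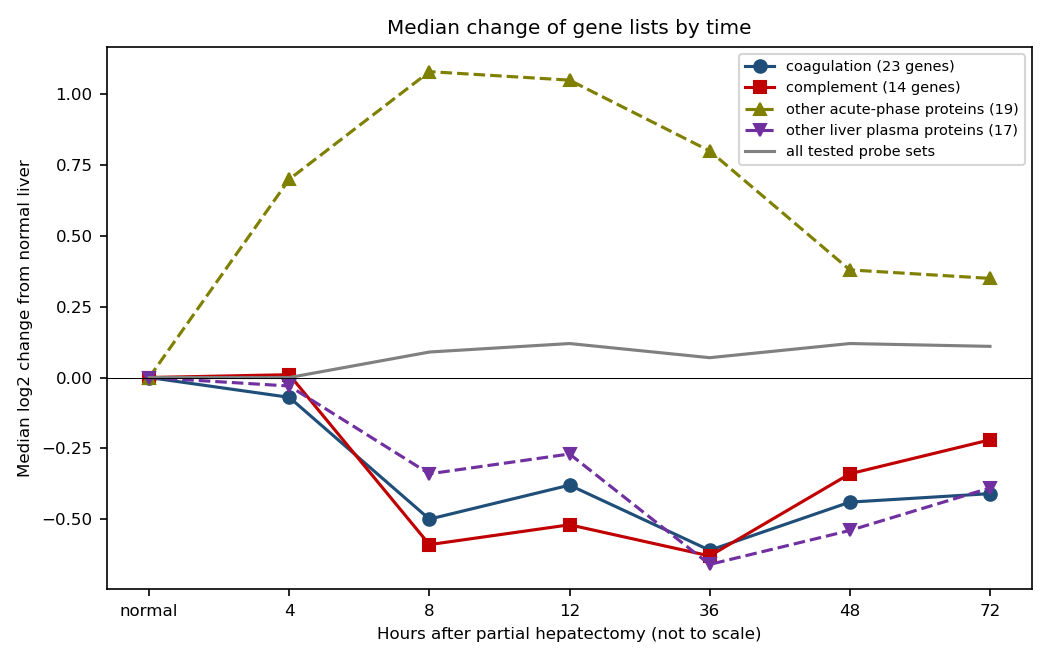
Median log2 change from normal liver (vertical axis) at each time (horizontal axis, hours, not to scale) for the coagulation genes, the complement genes, 2 comparison lists of liver plasma proteins and all tested probe sets. Coagulation and complement reach -0.61 and -0.63 at 36 h, while the other acute-phase proteins peak at 1.08 at 8 h.

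The contact system held the largest fall. It starts the intrinsic route of clotting: plasma kallikrein (Klkb1) and factor XII activate each other on a surface with high molecular weight kininogen (Kng1) as cofactor, and factor XII then activates factor XI (F11). Klkb1 intensity was 3571.5 and 5170.6 in normal liver, 2222.3 and 2636.2 at 4 h, 700.7 and 796 at 8 h, 382.3 and 1063.7 at 12 h, 1583.4 and 1433.9 at 36 h, 1363.1 and 2196.1 at 48 h, and 1420.2 and 1558.8 at 72 h. Every array after hepatectomy lay below both normal arrays, with the lowest values at 8 and 12 h. Folds here and below are on the scale of log2(intensity + 57), which understates changes of dim probe sets. Klkb1 was 5.42-fold lower at 8 h (log2 change -2.44, SE 0.38, adjusted p = 0.00216) and 6.21-fold lower at 12 h (-2.63, adjusted p = 0.00128). These were the only calls that passed under all 23 alternatives, with the adjusted p at 0.0294 or below. At 12 h the acinar sum given above was 1576.8 to 3734.1, against 214299.3 to 230444.5 at 8 h. The part of acinar RNA or of other cells in the Klkb1 changes was not tested. At 36, 48 and 72 h the log2 changes of Klkb1 were -1.48, -1.28 and -1.50 and did not pass (adjusted p = 0.0512, 0.129 and 0.0655).

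F11, the neighbour of Klkb1 on chromosome 8 with no coding gene between them in GRCm38.p6, encodes factor XI, a homologue of plasma kallikrein. Its intensity was 1349.6 and 1265.5 in normal liver, 889.9 and 871.5 at 4 h, 516.2 and 716.6 at 8 h, 459.3 and 849 at 12 h, 1047.4 and 1167.2 at 36 h, 990.3 and 829.5 at 48 h, and 826.9 and 975.7 at 72 h. All arrays after hepatectomy lay below normal liver, and those of 8 and 12 h were lowest except that replicate 2 at 12 h overlapped the 48 and 72 h arrays. F11 was 2.05-fold lower at 8 h (log2 change -1.03, SE 0.27, adjusted p = 0.034) and 1.99-fold lower at 12 h (-1.0, adjusted p = 0.0348). The log2 change at 36 h was -0.23, where that of Klkb1 was -1.48. The call at 8 h was lost without any 1 of 6 arrays, those of normal liver, 4 h and 8 h (adjusted p 0.054 to 0.213), and the call at 12 h without any 1 of 5, both of normal liver, both of 4 h and replicate 1 at 12 h (0.0535 to 0.167). The changes of F11 without replicate 2 of normal liver were -1.08 and -1.04. Both F11 calls were lost with no filter (adjusted p = 0.0533 and 0.0542). Without the low-ratio arrays the F11 changes were -1.25 and -1.4, and the 8 h call was lost. F12 and Kng1 did not pass at any time. Their largest log2 changes were -0.76 at 72 h for F12 and -0.49 at 36 h for Kng1, although a second, dimmer probe set of Kng1 passed at 36 h (-0.94, adjusted p = 0.0469). F5, the cofactor of factor X in the common route of clotting, did not pass either and had its largest change at 8 h (-0.72, adjusted p = 0.108).

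The 250 bases before the start of each gene came from RefSeq on GRCm38.p6 and are written 5′ to 3′ on the gene's strand. They are given for F11 and Klkb1, the 3 fibrinogen genes and the C8 alpha and beta genes. The genes of each set are neighbours, and the sets were chosen with the calls known. F11 and Klkb1 were both called, the fibrinogen genes were not, and of the C8 pair C8b was. Windows of other genes, some of them neighbours too, are not shown. A window was held for 29 of the 37 genes. Each was searched on both strands for 5 motifs: CTGGGAA, the interleukin 6 response element of type 2; TTCNNNGAA, the STAT palindrome, which can contain a CTGGGAA match; TTGCNNAA, of C/EBP proteins; GTTAAT, of HNF1; and AAAGTCCA, of HNF4. Capitals mark matches, which are descriptions of the letters and not binding sites, and the lack of a match says only that the letters are not in the window. Klkb1 and F11 are both on the minus strand, at chr8:45294836-45295085 and chr8:45262032-45262281.
Klkb1: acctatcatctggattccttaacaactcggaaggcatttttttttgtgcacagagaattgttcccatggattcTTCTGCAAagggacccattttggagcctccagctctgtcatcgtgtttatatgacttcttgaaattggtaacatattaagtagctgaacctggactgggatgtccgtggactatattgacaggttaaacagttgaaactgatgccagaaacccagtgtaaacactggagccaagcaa
F11: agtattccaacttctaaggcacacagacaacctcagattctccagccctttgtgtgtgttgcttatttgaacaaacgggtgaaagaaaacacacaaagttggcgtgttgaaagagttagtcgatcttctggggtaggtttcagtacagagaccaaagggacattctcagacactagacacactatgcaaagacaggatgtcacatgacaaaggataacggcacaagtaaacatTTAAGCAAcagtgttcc
Each holds 1 match to TTGCNNAA on the opposite strand and none to the other motifs. Over all 32851 windows 9.56% held TTGCNNAA, and among the 29 windows 6 did (C9, F11, F9, Fga, Fgb and Klkb1).

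**Figure D3:**
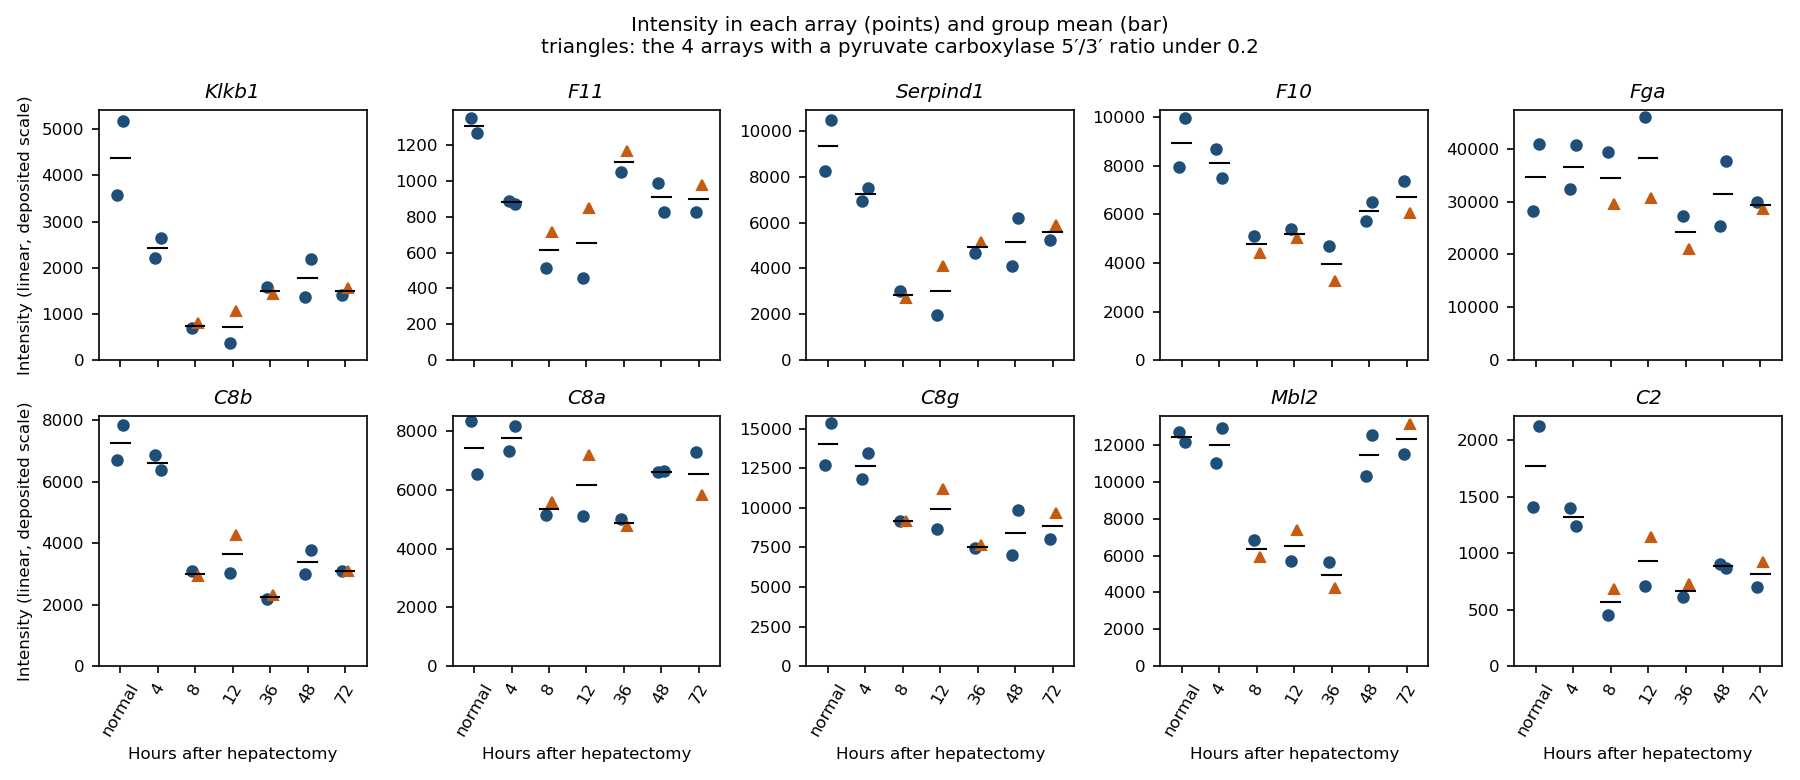
Intensity (vertical axes, linear, each starting at 0) of 10 genes in each of the 14 arrays by group (horizontal axis, normal liver and hours after hepatectomy); points are arrays, bars are means of 2 arrays, and orange triangles are the 4 low-ratio arrays. Klkb1 and Serpind1 have their lowest arrays at 12 h, C8b stays below both normal arrays from 8 to 72 h, and the Mbl2 arrays at 48 and 72 h lie between 10343.5 and 13126.7.

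Among the vitamin K-dependent proteins, which need carboxylated glutamates to bind membranes, F2 and F10 fell. F10 encodes factor X, the protease that cuts prothrombin. Its intensity was 7949.5 and 9941.2 in normal liver, 8703.7 and 7507.1 at 4 h, 5118.4 and 4423.6 at 8 h, 5387.8 and 5026.1 at 12 h, 4683.1 and 3240.4 at 36 h, 5738.4 and 6507 at 48 h, and 7387 and 6063.7 at 72 h. All arrays from 8 h onward lay below normal liver, lowest at 36 h and higher again at 48 and 72 h. F10 was 1.86-fold lower at 8 h (log2 change -0.89, SE 0.24, adjusted p = 0.0375) and 2.26-fold lower at 36 h (-1.18, adjusted p = 0.0178). Without replicate 2 of normal liver the adjusted p was 0.239 at 8 h and 0.15 at 36 h; the 8 h call was also lost without any 1 array of 4 or 8 h (lowest 0.0559) and the 36 h call without replicate 2 of 36 h (0.23). The 8 h call was lost as well with the low-ratio arrays as a block (-0.75, adjusted p = 0.066) and with no filter (0.0532). Both calls were lost with the mean of the probe sets (-0.60 at 8 h and -0.64 at 36 h). Both were also lost without the low-ratio arrays, where the changes were -0.79 and -0.92. The 2 dimmer probe sets of F10 did not pass, with log2 changes at 36 h of -0.35 and -0.38.

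F2 encodes prothrombin, the precursor of thrombin. Its intensity was 19876.6 and 27802.1 in normal liver, 20907.7 and 22913.5 at 4 h, 14808.5 and 13651.9 at 8 h, 16778.4 and 16464.1 at 12 h, 12639.4 and 10480.5 at 36 h, 12135.6 and 16191 at 48 h, and 14590 and 13489.7 at 72 h. The 4 h arrays lay within the normal range and all later arrays below it. F2 was 2.04-fold lower at 36 h (log2 change -1.03, SE 0.24, adjusted p = 0.0315). That call was lost with the low-ratio arrays as a block (adjusted p = 0.0607) and without any 1 of 7 arrays, replicate 2 of normal liver and both of 4, 8 and 36 h (0.0515 to 0.282). The F2 call was lost without the low-ratio arrays as well (-0.89). F7, encoding factor VII, the protease that tissue factor binds to start clotting, was at -1.38 at 36 h with an SE of 0.37 and did not pass (adjusted p = 0.0603). F9, encoding factor IX, had its largest change at 36 h (-0.86, adjusted p = 0.0577), as had Proc, the anticoagulant protein C (-0.98, adjusted p = 0.0662). Proz, encoding protein Z, was at -0.55 at 36 h, and its second probe set passed at 8 h (-1.38, adjusted p = 0.0315). Pros1, the cofactor of protein C, stayed between -0.31 at 8 h and 0.22 at 72 h. F7, F10 and Proz are adjacent on chromosome 8, and their log2 changes at 36 h were -1.38, -1.18 and -0.55.

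Fibrinogen, the precursor of fibrin, was not called at any time. Its 3 chains are encoded by the adjacent genes Fgg, Fga and Fgb on chromosome 3. Fga intensity was 28262.3 and 40912 in normal liver, 32412.1 and 40725.4 at 4 h, 39425.4 and 29606.7 at 8 h, 46036 and 30622.2 at 12 h, 27230 and 21126.5 at 36 h, 25335.2 and 37739.3 at 48 h, and 29997.4 and 28697 at 72 h. The arrays of 4, 8 and 12 h overlapped normal liver or lay above it, and both arrays of 36 h lay below it. The log2 changes of Fga, Fgb and Fgg were 0.01, 0.02 and 0.08 at 8 h, 0.14, 0.02 and 0.27 at 12 h, and -0.50, -0.58 and -0.37 at 36 h, none of which passed (adjusted p 0.348 or above at all 6 times). F13b, the carrier subunit of the transglutaminase factor XIII that crosslinks fibrin, did fall. Its intensity was 5112.1 and 3957.9 in normal liver, 3726.8 and 3409.8 at 4 h, 2460.4 and 2338.3 at 8 h, 2087.9 and 2864.1 at 12 h, 2757.9 and 2377.4 at 36 h, 3838.3 and 3825.9 at 48 h, and 3541.9 and 3503.4 at 72 h. All arrays after hepatectomy lay below normal liver, and those of 8, 12 and 36 h below all the others. F13b was 1.86-fold lower at 8 h (log2 change -0.89, SE 0.23, adjusted p = 0.028) and 1.82-fold lower at 12 h (-0.86, adjusted p = 0.0272). Without 1 normal array or the other the adjusted p was 0.0976 and 0.0521 at 8 h and 0.0955 and 0.0505 at 12 h; leaving out either 8 h array also ended the 8 h call, and leaving out replicate 1 at 12 h the 12 h call, and the highest adjusted p of these was 0.156. The changes without replicate 2 of normal liver were -1.07 and -1.05. Both calls were lost without the low-ratio arrays (-0.86 and -1.09). The 12 h call was lost with quantile normalization too (-0.76, adjusted p = 0.0528).

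The fibrinogen windows are shown as those of adjacent genes that encode the chains of fibrinogen. They were chosen with the values above known, and whether their letters bear on these values was not tested. Fga and Fgg lie on the plus strand at chr3:83025903-83026152 and chr3:83007474-83007723, and Fgb on the minus strand at chr3:83049864-83050113.
Fga: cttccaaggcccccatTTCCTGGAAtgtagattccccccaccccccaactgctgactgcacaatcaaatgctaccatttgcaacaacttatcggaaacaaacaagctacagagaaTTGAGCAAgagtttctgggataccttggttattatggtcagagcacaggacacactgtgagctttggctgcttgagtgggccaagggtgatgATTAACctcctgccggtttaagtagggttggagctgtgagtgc
Fgb: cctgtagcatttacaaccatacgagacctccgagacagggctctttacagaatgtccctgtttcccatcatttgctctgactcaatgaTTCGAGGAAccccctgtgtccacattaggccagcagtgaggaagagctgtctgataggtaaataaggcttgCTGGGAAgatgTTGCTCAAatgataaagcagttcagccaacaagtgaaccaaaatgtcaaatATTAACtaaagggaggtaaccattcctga
Fgg: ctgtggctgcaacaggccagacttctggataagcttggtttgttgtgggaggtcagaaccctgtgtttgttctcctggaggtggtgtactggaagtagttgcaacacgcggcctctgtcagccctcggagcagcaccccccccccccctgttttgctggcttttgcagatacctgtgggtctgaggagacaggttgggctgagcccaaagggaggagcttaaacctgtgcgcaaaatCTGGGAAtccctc
CTGGGAA is in the windows of Fgb and Fgg, TTCNNNGAA in those of Fga and Fgb, and TTGCNNAA and GTTAAT in those of Fga and Fgb. Of the 29 windows, 4 held CTGGGAA (F9, Fgb, Fgg and Masp2), against 9.1% of all windows, 6 held TTCNNNGAA (C8a, F9, Fga, Fgb, Masp2 and Pros1) against 7.02%, and 9 held GTTAAT (C4bp, C8a, C8b, F13b, Fga, Fgb, Hc, Proz and Vtn) against 6.43%. AAAGTCCA was in none of the 29 and in 1.01% of all windows.

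Of the clotting inhibitors and plasma regulators, Serpind1 alone was called. It encodes heparin cofactor II, a serpin that inactivates thrombin when bound to glycosaminoglycans. Its intensity was 8230.8 and 10473.4 in normal liver, 6951.1 and 7503.7 at 4 h, 3001.6 and 2723.1 at 8 h, 1956.5 and 4095.2 at 12 h, 4677.2 and 5154.2 at 36 h, 4123.5 and 6209.7 at 48 h, and 5256.7 and 5889.5 at 72 h. All arrays after hepatectomy lay below normal liver, and those of 8 and 12 h below all the others. Serpind1 was 3.20-fold lower at 8 h (log2 change -1.68, SE 0.32, adjusted p = 0.00654) and 3.23-fold lower at 12 h (-1.69, adjusted p = 0.00563). Without replicate 2 of normal liver the adjusted p was 0.0662 and 0.0566, and without replicate 2 of 8 h it was 0.0616 at 8 h. Without the low-ratio arrays the changes were -1.61 and -2.21, and the 8 h call was lost. The other 4 genes had their largest changes as follows and did not pass. Antithrombin (Serpinc1), the main serpin against thrombin and factor X, was at -0.57 at 36 h, and the C1 inhibitor Serping1, which restrains both the contact system and complement, at -0.77 at 36 h. Apoh, a phospholipid-binding plasma protein, was at -0.75 at 36 h, and vitronectin (Vtn), an adhesive protein that binds the terminal complement complex, at 0.35 at 4 h. Of the fibrinolysis genes, plasminogen (Plg) was at -0.61 and its inhibitor, alpha-2-antiplasmin (Serpinf2), at -0.86 at 36 h (adjusted p = 0.193 and 0.0758).

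In complement, the lectin pathway contributed Mbl2, encoding mannose-binding lectin C, which recognises microbial sugars. Its intensity was 12708.3 and 12144.6 in normal liver, 11046.6 and 12945.4 at 4 h, 6829.6 and 5936.6 at 8 h, 5687.5 and 7407.5 at 12 h, 5656.9 and 4260.2 at 36 h, 10343.5 and 12546.2 at 48 h, and 11494.8 and 13126.7 at 72 h. The 6 arrays of 8, 12 and 36 h lay below all 8 others, and of the 4 arrays of 48 and 72 h 1 lay within the normal range, 2 below it and 1 above it. Mbl2 was 1.94-fold lower at 8 h (log2 change -0.96, SE 0.24, adjusted p = 0.0248), 1.91-fold lower at 12 h (-0.93, adjusted p = 0.0239) and 2.51-fold lower at 36 h (-1.33, adjusted p = 0.00804). At 48 and 72 h the log2 change was -0.12 and -0.02. With replicate 2 of normal liver left out the adjusted p was 0.103, 0.102 and 0.054 at the 3 times, with changes of -0.99, -0.96 and -1.36, and leaving out replicate 1 gave 0.0623, 0.0597 and 0.0364. Each call was also lost without 1 of its own arrays, either one at 8 h, replicate 1 at 12 h and replicate 2 at 36 h (highest adjusted p 0.167, 0.102 and 0.125 over all arrays left out). All 3 calls were lost without the low-ratio arrays as well, with changes of -0.86, -1.12 and -1.13. Mbl1, encoding the A form, was at -0.67 at 12 h (adjusted p = 0.0699). The lectin-associated proteases Masp2 and Masp1, of which Masp2 cuts C4 and C2, were at -0.78 at 8 h and -0.58 at 48 h and did not pass.

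Among the convertase components C2 and Hc fell. C2 supplies the protease of the classical and lectin convertase and Cfb, its neighbour on chromosome 17, that of the alternative convertase. C2 intensity was 1409.8 and 2128.4 in normal liver, 1395.6 and 1241.8 at 4 h, 448.9 and 682.1 at 8 h, 713.1 and 1141.8 at 12 h, 610.9 and 726.4 at 36 h, 906.3 and 872.6 at 48 h, and 701.8 and 922.7 at 72 h. Every array after hepatectomy lay below normal liver, with the lowest at 8 h. C2 was 2.93-fold lower at 8 h (log2 change -1.55, SE 0.29, adjusted p = 0.00648) and 2.48-fold lower at 36 h (-1.31, adjusted p = 0.0274). Without replicate 2 of normal liver the adjusted p was 0.0746 at 8 h and 0.227 at 36 h; replicate 1 of 8 h (0.074) and either array of 36 h (lowest 0.133) were also needed for these calls. Without the low-ratio arrays the C2 changes were -1.82 at 8 h and -1.42 at 36 h, and the 36 h call was lost. Cfb did not pass, with log2 changes of -0.50 at 8 h and -0.42 at 36 h. Hc, the mouse gene of C5, whose fragments attract leukocytes and start the pore, had 7616.5 and 10562.2 in normal liver, 9770.1 and 8505.9 at 4 h, 4729.5 and 4572.8 at 8 h, 5129.4 and 7353.8 at 12 h, 5116.5 and 5106.9 at 36 h, 6648.3 and 7555.6 at 48 h, and 7401.8 and 7846.4 at 72 h. The 8 h arrays were the lowest, and replicate 2 at 72 h lay within the normal range. Hc was 1.92-fold lower at 8 h (log2 change -0.94, SE 0.24, adjusted p = 0.0297), and the call was lost without replicate 2 of normal liver or either 8 h array (0.122 to 0.23). Leaving out the low-ratio arrays ended the Hc call too, with a change of -0.92. The complement regulators did not pass. Cfi, the protease that inactivates C3b and C4b, was at -0.61 at 36 h, and C4bp, its cofactor for C4b, at 0.47 at 72 h.

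Of the 5 terminal pore components 1 was called; differences between these genes were not tested. C8b, the beta chain of C8, was the gene called most often, at 5 of 6 times. Its intensity was 6706.4 and 7855.4 in normal liver, 6871.9 and 6379.4 at 4 h, 3088 and 2934.5 at 8 h, 3035.9 and 4272.6 at 12 h, 2182.7 and 2327.9 at 36 h, 2998.1 and 3767.8 at 48 h, and 3093.1 and 3093.6 at 72 h. All 10 arrays from 8 h onward lay below all 4 arrays of normal liver and 4 h. C8b was 2.38-fold lower at 8 h (log2 change -1.25, SE 0.23, adjusted p = 0.00514), 2.0-fold at 12 h (-1.0, adjusted p = 0.0147), 3.17-fold at 36 h (-1.66, adjusted p = 0.00194), 2.14-fold at 48 h (-1.10, adjusted p = 0.0249) and 2.32-fold at 72 h (-1.22, adjusted p = 0.0131). The calls at 8 and 36 h passed with any 1 array left out and were lost only without the 4 low-ratio arrays (adjusted p = 0.0921 and 0.0731), where the changes were -1.22 and -1.71. The calls at 12, 48 and 72 h were also lost without the low-ratio arrays (0.0674, 0.107 and 0.225), when replicate 2 of normal liver was left out (0.108, 0.21 and 0.127), when replicate 1 of their own time was left out (highest 0.219) and, at 72 h, when replicate 2 was (lowest 0.0894).

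C8a and C8g encode the alpha and gamma chains that form C8 with the beta chain, and C8a adjoins C8b on chromosome 4. C8a had its largest log2 change at 36 h (-0.59, adjusted p = 0.201), with arrays of 8337.9 and 6531.9 in normal liver and 5000.9 and 4780.8 at 36 h. At 8, 12, 48 and 72 h C8a was at -0.46, -0.28, -0.15 and -0.18, where C8b was at -1.25, -1.0, -1.10 and -1.22. From 8 h onward C8g lay between them, from -0.50 at 12 h to -0.88 at 36 h (adjusted p = 0.0606 at 36 h). C9, which polymerises into the pore, was at -0.65 at 36 h and 0.05 at 72 h. C6, which binds C5b in the first step of pore assembly, lay above normal liver at 4, 12, 48 and 72 h (0.77, 0.59, 0.64 and 0.86) and at -0.30 and -0.07 at 8 and 36 h, and none of these passed (lowest adjusted p 0.166; 0.0506 in the F test). The windows of C8b, on the plus strand at chr4:104766067-104766316, and C8a, on the minus strand at chr4:104876399-104876648, each hold a GTTAAT match, and C8a holds a TTCNNNGAA match too.
C8b: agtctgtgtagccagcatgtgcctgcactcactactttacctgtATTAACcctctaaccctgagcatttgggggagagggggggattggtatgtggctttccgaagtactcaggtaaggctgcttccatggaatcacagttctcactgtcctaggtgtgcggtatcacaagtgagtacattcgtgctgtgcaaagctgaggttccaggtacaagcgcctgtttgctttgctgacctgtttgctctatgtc
C8a: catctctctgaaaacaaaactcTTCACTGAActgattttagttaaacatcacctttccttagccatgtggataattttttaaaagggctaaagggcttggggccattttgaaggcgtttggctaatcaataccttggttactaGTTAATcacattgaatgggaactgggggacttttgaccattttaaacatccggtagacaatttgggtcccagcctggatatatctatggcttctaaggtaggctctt
Both chains belong to 1 protein and their genes are adjacent. The windows were chosen with the changes above known, and whether their letters bear on these changes was not tested.

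The late times (36, 48 and 72 h) were also compared directly with the early ones (4, 8 and 12 h). The difference itself uses no normal array, while its SE and p-value rest on the spread within all 7 groups. Of the 37 genes 4 were lower late (F9, Fgg, C8b and Masp1) and 1 was higher (C4bp), against 5.96% and 9.92% of all probe sets; the 5 calls stand against 15.9% of all probe sets called in either direction, so the count is near the background. F9 had early arrays of 3768.7 to 5047.6 (median 4339.2) and late arrays of 2161.7 to 3461.4 (median 2882.5), without overlap. The difference was -0.60 on the log2 scale (SE 0.13, adjusted p = 0.00952) and passed in 22 of 23 alternatives, the exception being the fit without the low-ratio arrays (0.204). C8b was lower late by -0.53 (SE 0.13, adjusted p = 0.0164), passing in 21 of 23. Its early arrays ran from 2934.5 to 6871.9 (median 3680.3), where the 4 h arrays were the highest, and its late arrays from 2182.7 to 3767.8 (median 3045.6). That call was lost without replicate 1 of 36 h and without the low-ratio arrays (highest adjusted p 0.21). C4bp was higher late by 0.53 (SE 0.15, adjusted p = 0.0347), with early arrays of 4867.6 to 8474.6 and late arrays of 8270.5 to 12346.7, which overlap slightly. Masp1 differed by -0.42 (SE 0.11, adjusted p = 0.0246), and by -0.13 when its probe sets were averaged (0.507). Fgg differed by -0.48 (SE 0.15, adjusted p = 0.0486), by -0.14 after quantile normalization (0.386), and did not pass with the low-ratio arrays as a block (0.051). C4bp and Masp1 passed in 12 and Fgg in 8 of 23 alternatives, and each was lost without several single arrays, those of 8 h and both of 36 h among them, with log2 differences of 0.44 to 0.69 for C4bp, -0.45 to -0.13 for Masp1 and -0.60 to -0.14 for Fgg over all alternatives. Without replicate 1 of 36 h the complement count was 0, and without either array of 8 h the counts were 1 for each cascade.

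**Figure D4:**
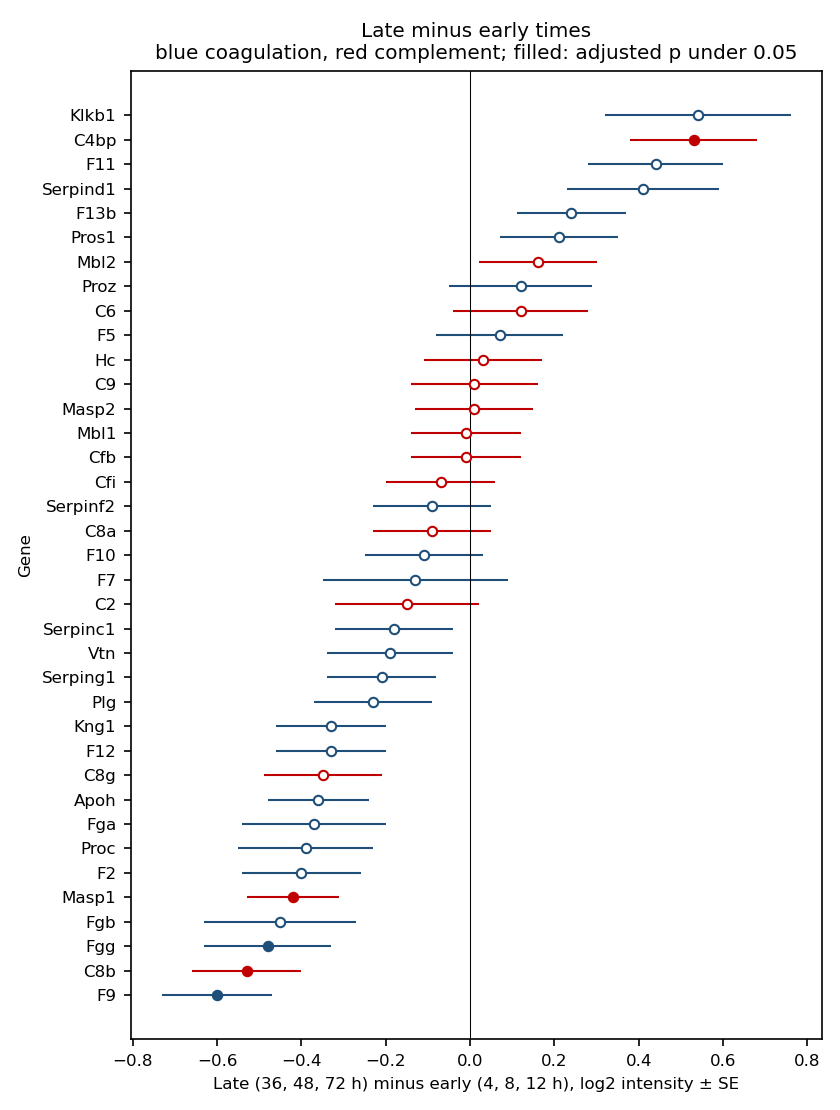
Difference between the late and the early times (horizontal axis, log2 intensity, with SE as bars) for each of the 37 genes (vertical axis); blue is coagulation, red is complement, and filled points passed at an adjusted p under 0.05 in limma. F9, C8b, Fgg and Masp1 are filled below 0 and C4bp above it, while Klkb1 lies farthest right at 0.54 without passing.

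The cascades have further genes that are not among the 40. Of 23 further coagulation and fibrinolysis genes 20 had a probe set and 15 passed the filter. At 4, 8, 12, 36, 48 and 72 h 1, 2, 2, 3, 1 and 1 of these 15 were called, all higher. Over all probe sets 2.42%, 9.59%, 12.2%, 4.17%, 2.32% and 2.49% were called in either direction, so the counts at 8 and 12 h are near the background. Thrombomodulin (Thbd), the endothelial receptor that turns thrombin toward protein C, was called at all 6 times. It was the only one of the list called at 4, 48 and 72 h. Its intensity was 109.9 and 49.7 in normal liver and 806.1 and 976.6 at 4 h (log2 change 2.82, SE 0.27, adjusted p = 0.000218, limma). The normal values lie near the background of the same arrays, 72.6 and 43.6, so the size of the Thbd changes is uncertain. S100a10, a subunit of the plasminogen-binding annexin complex, was higher at 8, 12 and 36 h (1.24 at 8 h, adjusted p = 0.0181), and its partner Anxa2 at 36 h (2.76, adjusted p = 0.00302). Of 24 further complement genes 18 had a probe set and 15 passed the filter. Cd93, a receptor of endothelial and myeloid cells, was higher at 4, 8 and 12 h (1.54 at 4 h, adjusted p = 0.038). The C1 proteases were lower, C1s1 at 8, 12 and 36 h (-1.31 at 8 h, adjusted p = 0.0104) and C1ra at 8 and 36 h (-1.39 at 36 h, adjusted p = 0.0147). C1qc, a chain of the C1q recognition unit made by macrophages, was lower at 12 h (-0.84, adjusted p = 0.0447); it is itself 1 of the 10 Kupffer cell and macrophage markers, whose sum was lowest at that time.

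Other secreted proteins of hepatocytes give the setting of these changes. Of 20 acute-phase genes outside the 40, 19 had a probe set, and 7, 10, 9, 6, 4 and 4 were higher at the 6 times, with medians of 0.70, 1.08, 1.05, 0.80, 0.38 and 0.35. At 12 h 2 of them, Saa4 and Crp, named here after their values were seen, were lower. Saa2, encoding a serum amyloid A, rose from 483.5 and 510.6 in normal liver to 26872.7 and 20747.7 at 8 h (log2 change 5.42, SE 0.32, adjusted p = 5.75e-06). Of 21 plasma proteins of liver outside coagulation, complement and the acute phase, 17 had a probe set, and none was called higher at any time. Serpina6, the corticosteroid carrier, was lower at 12 and 36 h (-1.16 and -1.26) and Azgp1 at 36 h (-1.03, adjusted p = 0.0294). The medians of this list were -0.03, -0.34, -0.27, -0.66, -0.54 and -0.39, beside the coagulation and complement medians given above. The 10 hepatocyte markers had medians of 0.06, -0.26, -0.27, -0.62, -0.42 and -0.37, and none of them was called at any of the 6 times.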

How the data were processed

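The values were deposited by the authors as 1 table of linear probe-set intensity over all arrays (Affymetrix identifiers); the program and its settings are not given in the sources used here, and the scaling was read from the numbers themselves. The deposited intensity values of 22690 probe sets (64 controls left out) were taken as log2(intensity + 57), where 57 is the lower quartile of all these values. Background on each array was the 95th percentile of the 27 bacterial controls (43.6 to 138.3). Probe sets with a mean intensity of at least 128.8 (the 40th percentile) were kept, which left 13576. The number of arrays, 2 per group, limits the precision. limma 3.58.1 in R 4.3.3 fitted 7 group means (7 residual degrees of freedom) with moderated tests and Benjamini-Hochberg adjustment, and was tested on simulated data. Gene symbols came from the platform annotation: 20380 probe sets had 1 symbol, 691 several and 1555 none. The members and lists were chosen with earlier results of these data known. All members are named; those called in the F test or in a contrast with normal liver are given in every array, and the others at their largest change. Of each other list up to 4 called genes with the largest change could be named in a comparison. Alternatives were quantile normalization, other pseudocounts and filters, blocks, averaging all probe sets of a gene, leaving out arrays singly or the 4 low-ratio ones together, and the 2-fold rule of the study.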

Additional observations from a re-analysis of the deposited data

Results flagged for a closer look

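In all, 5 genes differed between the late times (36, 48 and 72 h) and the early times (4, 8 and 12 h) in the direct contrast of limma, against 15.9% of all probe sets called there; 5 of 37 is no larger a share. F9 differed by -0.60 on the log2 scale, from a mean change against normal liver of -0.11 early to -0.71 late. Fgg differed by -0.48, from 0.21 to -0.28. C8b differed by -0.53, from -0.79 to -1.33, and was below normal liver in both periods. Masp1 differed by -0.42, from 0.02 to -0.40. C4bp differed by 0.53, from -0.24 to 0.29.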

How the results depend on the processing

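With 2 arrays a group, leaving out each array in turn gave 1 to 7, 1 to 5, 0 to 9, 0 to 1 and 0 to 1 coagulation calls at 8, 12, 36, 48 and 72 h, 1 to 6 over the 6 times and 1 to 5 late against early; complement had 1 to 5, 0 to 3, 1 to 4, 0 to 1 and 0 to 2, then 2 to 6 and 0 to 3. A group left with 1 array was assumed to vary like the others. The share of all probe sets called under each alternative was not computed, so the counts of this section have no background beside them. Over these fits the medians ranged from -0.20 to 0.02, -0.61 to -0.38, -0.45 to -0.26, -0.77 to -0.56, -0.59 to -0.29 and -0.57 to -0.30 at the 6 times for coagulation, and from -0.08 to 0.02, -0.68 to -0.58, -0.67 to -0.41, -0.74 to -0.59, -0.52 to -0.19 and -0.38 to -0.22 for complement. A pseudocount of 228 gave 7, 10, 1 and 2 coagulation calls at 12, 36, 48 and 72 h, 9 over the 6 times and 5 late against early, and 4, 5 and 2 complement calls at 12, 36 and 72 h and 7 over the 6 times. A filter at the 60th percentile gave 7, 10 and 1 for coagulation at 12, 36 and 72 h, 6 over the 6 times and 4 late against early, and 4 for complement at 12 h and 5 over the 6 times. With no filter, coagulation had 3 at 8 h and 1 late against early; with a pseudocount of 14.25 it had 1 late against early. Averaging a gene's probe sets gave 9 for coagulation at 36 h, 5 over the 6 times and 4 late against early, and 5 for complement over the 6 times. Replicate number as a block gave 4 coagulation calls at 36 h and 1 at 72 h, and kept all 22 calls of gene and time. The deviations of same-numbered arrays correlated above 0.1 in 9 of 21 pairs of groups (range -0.19 to 0.53). These correlations cannot settle whether the numbers pair the arrays. The highest was between normal liver and 48 h. Pairs among 8, 12, 36 and 72 h, where replicate 2 is a low-ratio array, lay between 0.14 and 0.31. The low-ratio arrays as a block gave 1 coagulation and 2 complement calls at 72 h and 5 complement calls over the 6 times, and kept 20 of 22, losing F2 at 36 h and F10 at 8 h. Without those 4 arrays coagulation had 1 at 8 h, 0 at 36 h, 1 over the 6 times and 0 late against early, and complement 1 at 8 h and 0 at 12, 36, 48 and 72 h, over the 6 times and late against early; 4 groups then hold 1 array. The 2-fold rule without a test gave 4, 1 and 1 for coagulation at 36, 48 and 72 h, and 2, 0 and 2 for complement at 8, 12 and 72 h. Quantile normalization moved the coagulation median to -0.44, -0.20 and -0.25 at 36, 48 and 72 h. It moved the complement median to -0.45, -0.17 and -0.05 at these times, and kept 21 of 22 calls. The cause was not tested.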

Other observations

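Transcription factors of hepatocytes were called at 4, 8, 12 and 36 h. Of 12 listed, 10 had a probe set, and 4 were called at 4 h (2.42% of all probe sets were). No coagulation or complement gene was called at that time, and a link between the factors and these genes was not tested. Cebpd, a C/EBP factor of the acute phase, rose from 226.6 and 168.4 in normal liver to 1314.3 and 998.7 at 4 h (log2 change 2.25, SE 0.26, adjusted p = 0.000738, limma), and was higher at 8, 12 and 36 h as well (2.32, 2.44 and 1.11). Cebpb, a related factor, was higher at 4 and 12 h (1.64 and 1.27), and Stat3, which carries the interleukin 6 signal, at 8 and 12 h (1.20 and 1.46). Foxa1 and Foxa2, which open liver enhancers, were lower at 4 h (-1.37 and -1.21), and Foxa2 at 12 h (-1.02). Cebpa, the C/EBP factor of resting hepatocytes, fell from 7397.7 and 9733.6 in normal liver to 2470 and 2218.5 at 8 h (-1.83, adjusted p = 0.0144). No factor of the list was called at 48 or 72 h in limma.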
